A study of Drosophila melanogaster with 4 samples.

Results

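The Hox genes are homeodomain transcription factors that give the segments of the fly their identity, and they lie in the Antennapedia complex (lab, pb, Dfd, Scr and Antp) and the bithorax complex (Ubx, abd-A and Abd-B) in about the order of the body regions they specify. In the nervous system they are expressed in overlapping domains from the posterior brain and the gnathal ganglia through the thoracic and abdominal neuromeres, and most of the brain expresses none of them. There they set which neurons a segment makes, when its neural stem cells stop dividing, and which cells die. All 8 Hox genes were taken by name from the tables, where genes are given by NCBI gene number. They are 8 of the 13997 genes listed in any library, and each of the 8 was listed in all 4 libraries.

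The RNA came from whole larval nervous systems of Drosophila melanogaster, dissected 96 hours after egg laying and pooled. The 2 reprogrammed samples carried repo-Gal4, a driver active in glia, with constitutively activated Egfr, a receptor tyrosine kinase, and constitutively activated PI3K92E, the catalytic subunit of phosphoinositide 3-kinase. The 2 control samples carried repo-Gal4 with the red fluorescent protein mRFP. Every sample was a pool of 70 to 100 whole nervous systems, so the driver shared by both groups marks only part of the cells measured, and all other differences between the fly lines go with the group. In such a pool, fewer cells of a type and less RNA per cell cannot be told apart, and neither can a change in 1 segment and a change along the whole cord. No label says that the pools came from separate crosses or cultures, so each p-value reflects how far pools of 1 group differed, which may be technical.

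Levels are in FPKM, a read number scaled to transcript length and to library size. Levels of different genes can be set side by side only roughly, since the transcript lengths behind most FPKM values are unknown. Judged from the steps between low values, a gene of 1 kilobase at 1 FPKM had between 10.8 and 11.8 reads in each of the 4 libraries. Changes are reprogrammed minus control on log2(FPKM + 1), a scale that compresses changes of genes near or below 1 FPKM, with the standard error (SE) and Benjamini-Hochberg adjusted p of limma over 9851 tested genes, two-sided, with 2 samples a group and a threshold of 0.05. The targeted genes followed the labels. Egfr stood at 58.91 and 49.29 FPKM in reprogrammed samples and at 8.60 and 11.40 FPKM in controls. Pi3K92E stood at 287.42 and 252.56 FPKM in reprogrammed samples and at 8.28 and 17.10 FPKM in controls, and for neither gene do the values separate transgene from endogenous transcripts. Markers of the labelled tissue were present, with elav, the pan-neuronal RNA-binding protein, at 24.88 and 33.33 FPKM in reprogrammed samples and 124.74 and 84.47 FPKM in controls. The glial transcription factor repo stood at 60.67 and 51.47 FPKM in reprogrammed samples and 12.41 and 23.74 FPKM in controls.

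Scr, the most abundant Hox gene of the control nervous system, fell 7.98-fold in reprogrammed samples. Antp, abd-A and Abd-B stood at 45.0% to 46.2% of their control means without passing the test, and lab, Dfd and Ubx differed by less than their standard errors. Of the 8 Hox genes 7 passed the filter of 1 FPKM in at least 2 libraries, pb being left out, and 1 of these 7, Scr, was called lower, where 8.13% of all tested genes were called lower. None of the 7 was called higher, where 4.11% of all tested genes were. Over all tested genes 405 were called higher and 801 lower, and with the libraries set to equal medians 586 were called higher and 439 lower. The libraries of the groups did not overlap, with reprogrammed samples lower, for 5 of the 7 tested genes, where the same held for 40.8% of all tested genes. At an unadjusted p under 0.05 limma gave 4 of the 7 lower, where 23.4% of all tested genes were lower. The median change of the 7 was −0.78, where that of all tested genes was −0.25. Together the 8 genes summed to 24.6 and 28.4 FPKM in reprogrammed samples and to 76.4 and 71.0 FPKM in controls.

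**Figure D1:**
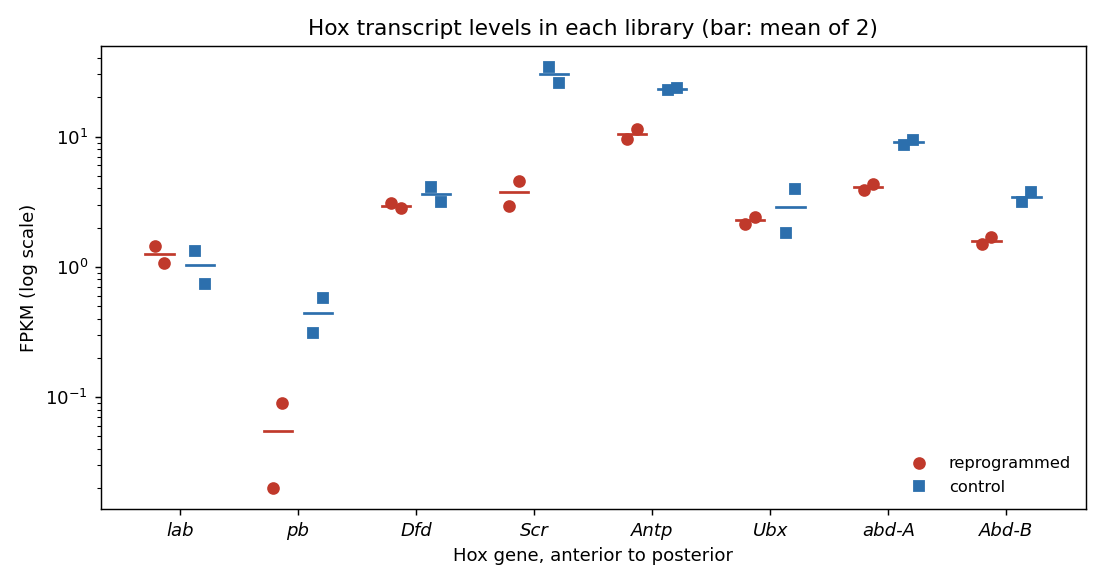
FPKM of the 8 Hox genes on a log axis, in order along the body axis, with circles for the 2 reprogrammed and squares for the 2 control libraries and a bar at each mean. Scr stood at 2.94 and 4.58 FPKM in reprogrammed libraries and at 34.20 and 25.79 FPKM in control libraries, the widest gap among genes above 1 FPKM, while lab and Ubx overlapped between groups.

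The head genes lab, pb and Dfd were scarce in all libraries. lab, which patterns the tritocerebrum at the rear of the embryonic brain, stood at 1.44 and 1.07 FPKM in reprogrammed samples and at 1.33 and 0.74 FPKM in controls. Its groups overlapped, with a change of 0.16 ± 0.32 (SE, limma adjusted p = 0.762). Dfd, which specifies maxillary and mandibular segments and acts in the neurons that drive feeding movements, stood at 3.08 and 2.82 FPKM in reprogrammed samples and at 4.07 and 3.13 FPKM in controls. The Dfd groups lay side by side without overlapping, and the change of −0.21 ± 0.32 was smaller than its error (limma adjusted p = 0.681). pb, which specifies the adult mouthparts, stood at 0.02 and 0.09 FPKM in reprogrammed samples and at 0.31 and 0.58 FPKM in controls. With its longest annotated transcript of 3728 bases these pb values correspond to about 0.8 and 3.7 reads in reprogrammed and 12.9 and 25.5 reads in control libraries. Both reprogrammed values of pb were below both controls, on reads too few for a fold change. With no filter on low values, pb changed by −0.45 ± 0.13 (limma adjusted p = 0.137).

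Scr, which specifies the labial and first thoracic segments, was the most abundant Hox gene in controls, at 34.20 and 25.79 FPKM, and stood at 2.94 and 4.58 FPKM in reprogrammed samples. Every reprogrammed value was far below every control value. Its mean was 3.76 ± 1.16 FPKM in reprogrammed samples and 30.0 ± 5.95 FPKM in controls (SD, n = 2 each), 7.98-fold lower. The change was −2.71 ± 0.35 (SE, limma adjusted p = 0.0308), and 0.203% of all tested genes had a lower value. In the order of levels over all tested genes Scr stood above 24.3% of genes in reprogrammed samples and above 69.1% in controls. The call held in 11 of 12 alternative settings, with changes from −2.98 to −2.04 in all 12. It was lost only with no filter on low values (limma adjusted p = 0.0843), where 0 of 13997 genes passed and 3629 had an unadjusted p under 0.05. Without reprogrammed replicate 1 the adjusted p was 0.0482 and without reprogrammed replicate 2 it was 0.00637.

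Scr also specifies the salivary gland in the embryo, a tissue that a dissection can carry along. None of the 3 salivary gland genes that could be tested was called. The 8 salivary gland genes summed to 4.62 and 16.6 FPKM in reprogrammed samples and to 1018 and 229 FPKM in controls. The libraries of the groups overlapped for each of those 3 genes, Sgs5, Sgs7 and Sgs8. In control replicate 2, 228.44 FPKM of the sum was ng1. There the glue gene Sgs3 stood at 0 FPKM, against 23.65 FPKM in control replicate 1, and Sgs7 at 0 FPKM, against 734.15 FPKM, while Scr in control replicate 2 was 25.79 FPKM. The part of salivary gland RNA in the Scr values was not tested.

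Antp, which specifies the thorax and acts in thoracic motor neurons, was the second most abundant Hox gene in controls and the most abundant in reprogrammed samples. It stood at 9.58 and 11.41 FPKM in reprogrammed samples and at 22.95 and 23.68 FPKM in controls. Both groups were tight and did not overlap, with reprogrammed means at 45.0% of the control mean. The change was −1.09 ± 0.29 (SE, limma adjusted p = 0.0635), just short of the threshold. Antp passed on a common sum of FPKM (−1.34, limma adjusted p = 0.0454), without control replicate 1 (0.0257) and without control replicate 2 (0.0351). It did not pass without reprogrammed replicate 1 (0.625) or 2 (0.405).

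The bithorax complex genes abd-A and Abd-B behaved like Antp, and Ubx did not. abd-A, which specifies abdominal segments and triggers the death of abdominal neural stem cells in the larva, stood at 3.92 and 4.32 FPKM in reprogrammed samples and at 8.64 and 9.40 FPKM in controls. Its groups did not overlap and the reprogrammed mean was 45.7% of the control mean, with a change of −0.97 ± 0.31 (SE, limma adjusted p = 0.0925). abd-A passed without control replicate 1 (limma adjusted p = 0.0309) and without control replicate 2 (0.0495). Abd-B, which specifies the last abdominal segments, stood at 1.49 and 1.69 FPKM in reprogrammed samples and at 3.13 and 3.76 FPKM in controls. Its reprogrammed mean was 46.2% of the control mean, again without overlap, and the change was −0.78 ± 0.31 (limma adjusted p = 0.143). Ubx, which specifies the third thoracic and first abdominal segments, stood at 2.12 and 2.43 FPKM in reprogrammed samples and at 1.81 and 3.93 FPKM in controls. The reprogrammed values of Ubx lay between its 2 control values, and its change was −0.19 ± 0.39 (limma adjusted p = 0.772). Without control replicate 1 Ubx read −0.59 and without control replicate 2 it read 0.22, so its sign rested on which control was used.

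The order of the changes did not follow the order along the body axis. Spearman's rho between axis order and change was −0.29 over the 7 tested genes, which share the same 4 libraries. In controls the levels ran from Scr through Antp and abd-A to Dfd, Abd-B, Ubx, lab and pb, and Dfd overlapped Abd-B as Abd-B overlapped Ubx. In reprogrammed samples the order was Antp, abd-A, Scr, Dfd, Ubx, Abd-B, lab and pb, and Scr overlapped both of its neighbours, abd-A and Dfd. All other neighbours in these 2 orders had libraries that did not overlap.

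Long transcripts were lower in reprogrammed libraries as a class, and Hox transcripts are long. The median change of tested genes was 0.20 in the eighth with the shortest transcripts, −0.79 in the next to longest eighth and −0.96 in the longest eighth, of which 23.9% were called lower. Antp, abd-A and Abd-B, with longest annotated transcripts of 4902, 5269 and 8184 bases, belong to that last eighth. Their changes of −1.09, −0.97 and −0.78 lay within 0.18 of its median. Scr, at 4140 bases, fell by 1.92 more than the median of its own eighth, and Ubx, at 4282 bases in the same eighth, lay 0.60 above that median. With the trend on length removed, the change was −2.04 for Scr (limma adjusted p = 0.0357), −0.31 for Antp (0.449), −0.16 for abd-A (0.699), 0.19 for Abd-B (0.665) and 0.51 for Ubx (0.313). How much of the changes of Antp, abd-A and Abd-B goes with transcript length was not tested beyond these values.

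**Figure D2:**
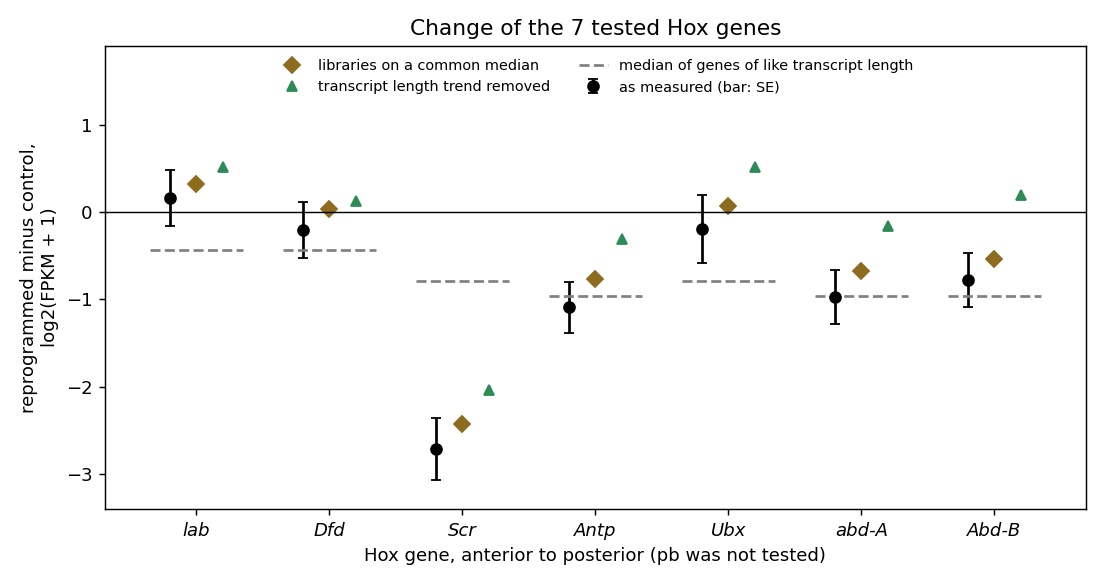
Change of the 7 tested Hox genes, reprogrammed minus control on log2(FPKM + 1), as measured with its SE (circles), with libraries on a common median (diamonds) and with the trend on transcript length removed (triangles). Dashed lines give the median change of the eighth of genes with like transcript lengths: Antp, abd-A and Abd-B sit within 0.18 of theirs and Scr 1.92 below its own.

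Ratios between 2 genes in the same library do not depend on how the library was scaled. Antp, abd-A and Abd-B kept nearly the same proportions in all 4 libraries. The log2 ratio of Antp over abd-A was 1.29 and 1.40 in reprogrammed samples and 1.41 and 1.33 in controls. That of abd-A over Abd-B was 1.40 and 1.35 in reprogrammed samples and 1.46 and 1.32 in controls, so the groups overlapped and their means differed by 0.02. Antp over Abd-B likewise overlapped, at 2.68 and 2.76 in reprogrammed samples and 2.87 and 2.65 in controls. These genes lie in 2 complexes. They were set together with their values known, so their even ratios follow from their like changes and are no separate result. Within the bithorax complex the ratios of Ubx to abd-A and to Abd-B did not overlap between groups, with shifts of 0.9 and 0.88. The same lack of overlap held for 66.2% of all pairs of tested genes above 0 in every library. These 2 shifts are tied, since abd-A and Abd-B kept nearly the same ratio.

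Measured against Antp, abd-A and Abd-B, Scr and pb stood lower in reprogrammed samples, and lab, Dfd and Ubx stood higher. Such ratios still carry the trend on transcript length. lab and Dfd belong to an eighth with a median change of −0.43, Ubx and Scr to one with −0.79, and the 3 reference genes to one with −0.96. How much of these ratios goes with length was not tested. Scr over Antp had a log2 ratio of −1.70 and −1.32 in reprogrammed samples and 0.58 and 0.12 in controls. Scr was thus the less abundant of the pair in both reprogrammed samples and the more abundant in both controls. Ubx over abd-A, its neighbour in the bithorax complex, was −0.89 and −0.83 in reprogrammed samples and −2.26 and −1.26 in controls. Dfd over abd-A was −0.35 and −0.62 in reprogrammed samples and −1.09 and −1.59 in controls. lab over abd-A was −1.44 and −2.01 in reprogrammed samples and −2.70 and −3.67 in controls. Of all 28 pairs, 22 had ratios that did not overlap between groups, among them 6 of the 7 pairs with Scr, where 66.2% of all pairs of tested genes above 0 in every library did not overlap. The exception with Scr was its pair with pb. Every pair with pb rests on few reads, and as pb was not tested, its pairs are among the 28 but not in that background. Among Antp, abd-A and Abd-B, set together with their values known, 0 of 3 pairs were free of overlap. With 2 libraries a group an exact permutation test of such a ratio cannot give a p under 0.3333, so these are descriptions.

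**Figure D3:**
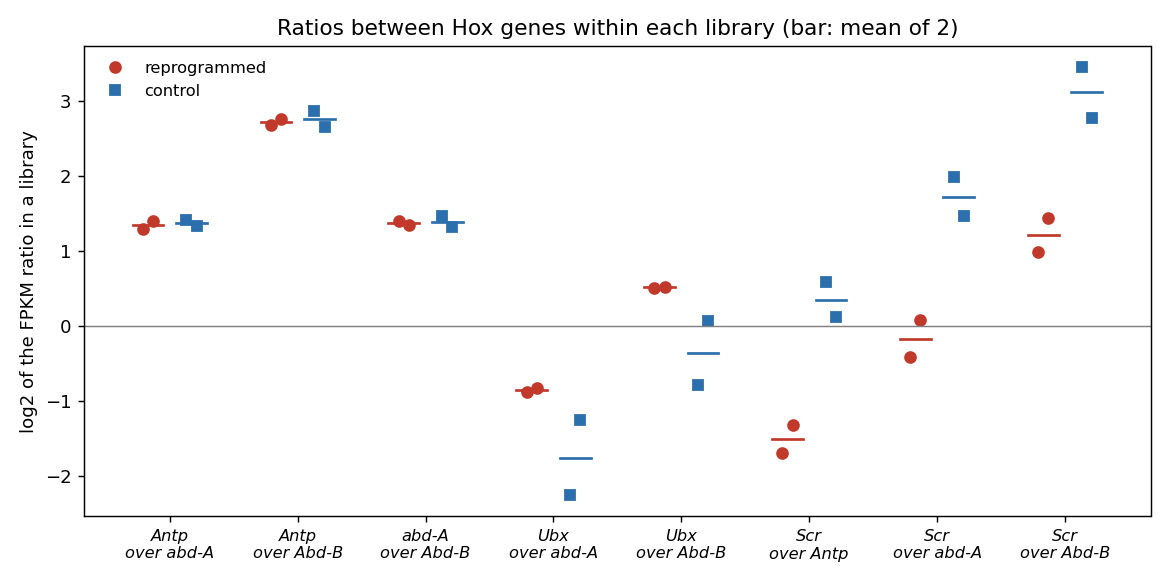
Log2 of the FPKM ratio of 8 pairs of Hox genes in each library, with circles for reprogrammed and squares for control libraries and a bar at each mean. The first 3 pairs, among Antp, abd-A and Abd-B, overlap between groups, while ratios of Ubx lie higher and ratios of Scr lower in reprogrammed libraries.

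As a share of the summed Hox FPKM, Scr and pb were lower in reprogrammed samples and each of the other 6 genes was higher. Scr held 14.0% ± 2.95 of the sum in reprogrammed samples and 40.5% ± 5.96 in controls (SD, n = 2 each). Antp held 39.0% and 40.2% in reprogrammed samples and 30.0% and 33.3% in controls. The 3 bithorax complex genes together held 30.6% and 29.7% in reprogrammed samples and 17.8% and 24.1% in controls. Dfd held 12.5% and 9.93% in reprogrammed samples and 5.32% and 4.41% in controls, although its own level was lower. Each share differed between the groups without overlap, at an exact two-sided permutation p of 0.3333, the smallest that 2 against 2 libraries can give. Because the shares are tied, these are not separate results, and no background over other genes was computed for them. Without Scr the other 7 genes summed to 21.6 and 23.8 FPKM in reprogrammed samples and to 42.2 and 45.2 FPKM in controls, or 52.0% of the control mean.

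**Figure D4:**
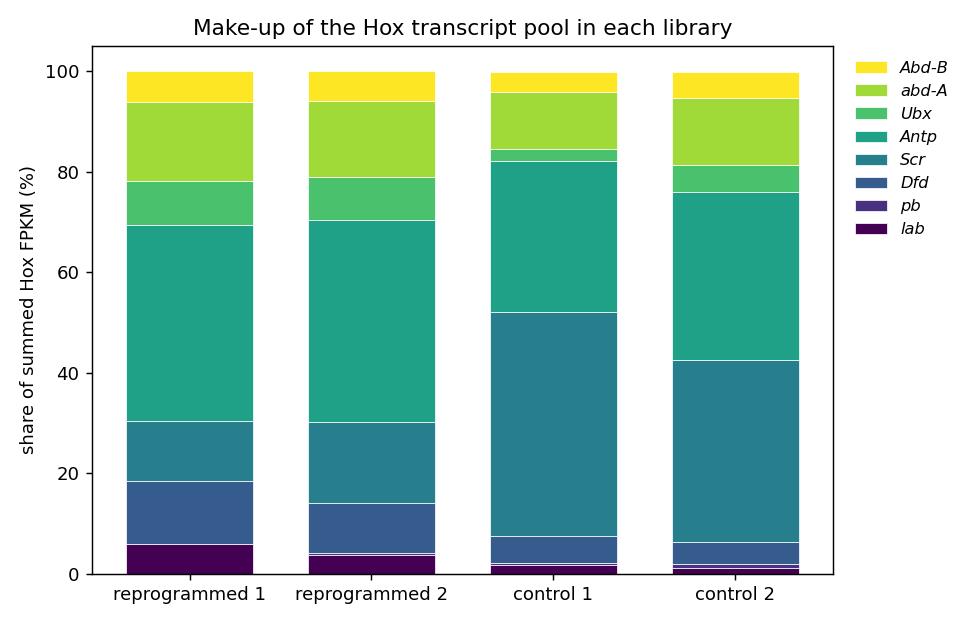
Each Hox gene's share of the summed FPKM of the 8 genes, stacked from lab at the bottom to Abd-B at the top, in the 2 reprogrammed libraries and then the 2 control libraries. The Scr segment averages 14.0% in reprogrammed libraries and 40.5% in control libraries.

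Neuronal genes were lower in reprogrammed samples, and Hox levels were also set against them. Of 32 mature neuron genes 22 were called lower and 0 higher, with a median change of −1.67, and of 30 neuroblast genes, those of neural stem cells, 17 were called lower and 0 higher (median −1.81). The share called lower was 8.13% over all tested genes. Measured in each library against the median log2 level of the mature neuron genes, Antp stood at 0.24 and −0.06 in reprogrammed samples and at −0.45 and −0.46 in controls. On the same measure abd-A stood at −0.87 and −1.28 in reprogrammed samples and at −1.77 and −1.71 in controls. Scr went the other way, at −1.19 and −1.21 in reprogrammed samples and at 0.10 and −0.35 in controls. All 8 genes had groups that did not overlap on this measure, 7 of them higher in reprogrammed samples and Scr lower. Over all tested genes 81.8% were likewise higher without overlap and 1.99% lower, since the neuron genes themselves were lower, so the 7 higher genes are near the background. For pb this rests on few reads. Most glial genes moved the opposite way to neurons, with 10 of 28 called higher and 4 lower (median 0.97), and 9 had a negative change. Among all tested genes 4.11% were called higher and 8.13% lower. The 4 glial genes called lower were gcm, Eaat2, NetB and ana. Of these, gcm stood at 0.67 and 0.61 FPKM in reprogrammed samples and at 7.48 and 8.54 FPKM in controls.

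The complexes hold other genes between the Hox genes, and most of these were nearly silent. The annotation places 54 other genes between lab and Antp or between Ubx and Abd-B, of which 29 were listed in any library, 17 stayed below 1 FPKM in every library and 9 were tested. Ama, a secreted immunoglobulin-domain adhesion protein, was the 1 gene called higher, where 4.11% of all tested genes were. It stood at 483.71 and 471.48 FPKM in reprogrammed samples and at 147.02 and 185.46 FPKM in controls (1.53 ± 0.28, limma adjusted p = 0.0380). The noncoding gene lncRNA:CR33938, between lab and pb, was the 1 gene called lower, where 8.13% of all tested genes were. It stood at 265.91 and 322.92 FPKM in reprogrammed samples and 696.17 and 1205.23 FPKM in controls (−1.64 ± 0.38, limma adjusted p = 0.0480). The Ama call was lost after quantile normalization (0.065), and both calls were lost without reprogrammed replicate 1 (0.315 for Ama and 0.406 for lncRNA:CR33938) and without reprogrammed replicate 2 (0.184 and 0.181). lncRNA:CR33938 also lost its call on a common median (0.0733), with a pseudocount of 0.1 (0.0519) and with the length trend removed (0.054).

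Between ftz and Antp, lncRNA:CR45559 was lower in both reprogrammed samples and just missed the test. It stood at 4.22 and 9.29 FPKM in reprogrammed samples and at 28.24 and 20.15 FPKM in controls, without overlap (−1.76 ± 0.43, limma adjusted p = 0.0538). It passed on a common sum (0.039), with a filter of 5 FPKM (0.0429), with the length trend removed (0.0459) and without control replicate 2 (0.045). lncRNA:CR44932, the listed gene next to Antp on that side, overlapped between groups at 3.37 and 4.23 FPKM in reprogrammed samples and 3.04 and 5.76 FPKM in controls. The developmental homeobox genes bcd and ftz, which lie in the Antennapedia complex but act in the early embryo, were at 0.19 FPKM or less in every library.

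In the bithorax complex the noncoding RNAs that accompany Hox regulation in the embryo were at 1.60 FPKM or less. lncRNA:iab8, which ends next to abd-A, stood at 1.15 and 1.08 FPKM in reprogrammed samples and at 0.79 and 1.60 FPKM in controls. lncRNA:iab4, the host of a microRNA directed at Ubx, stood at 0.50 and 0.59 FPKM in reprogrammed samples and at 0.33 and 0.23 FPKM in controls. lncRNA:bxd, from the regulatory region of Ubx, stood at 0.07 and 0.59 FPKM in reprogrammed samples and at 0.07 and 0.26 FPKM in controls. Of these, iab4 was higher in both reprogrammed samples and too low to be tested. The annotation places 5 noncoding genes within the span of Scr, 2 genes within that of Antp, 1 antisense RNA within that of Ubx and 1 noncoding gene within that of Abd-B. Only 1 of those within Scr, lncRNA:CR45905, and the 1 within Abd-B, lncRNA:CR46267, were listed in any library. They stood at 0.09 FPKM or less and 0.06 FPKM or less. No strand-marking step is named for the libraries, so reads in stretches shared with such genes cannot be told apart from those of the Hox gene.

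**Figure D5:**
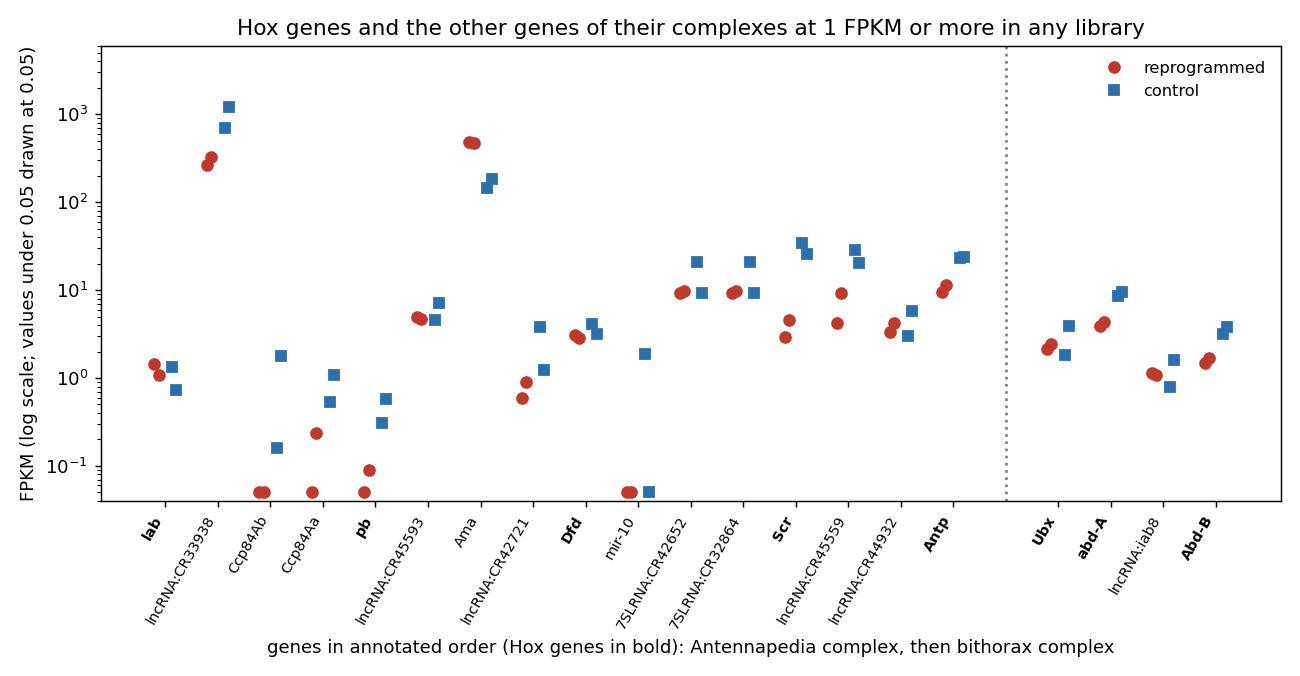
FPKM on a log axis of the Hox genes (bold) and of the other genes of both complexes that reached 1 FPKM in any library, in annotated order, with circles for reprogrammed and squares for control libraries and values under 0.05 drawn at 0.05. Ama lies higher in reprogrammed libraries, and Scr and lncRNA:CR45559 lie lower.

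In a list of Hox cofactors and other patterning genes, called cofactors below, several genes were called lower, with calls that depended on the processing. Of the 8 genes in this list, 7 were tested, 4 were called lower, 0 higher, and the median change was −1.61. Among all tested genes 8.13% were called lower, and 23.9% in the eighth with the longest transcripts. hth, the homeodomain protein that carries the Hox cofactor Exd into the nucleus, stood at 25.65 and 25.37 FPKM in reprogrammed samples and 83.45 and 73.19 FPKM in controls (−1.58 ± 0.26, limma adjusted p = 0.0340). exd, which binds DNA next to Hox proteins, stood at 90.28 and 85.37 FPKM in reprogrammed samples and 194.77 and 160.32 FPKM in controls, without overlap and without a call (−1.0 ± 0.26, limma adjusted p = 0.0611). The trunk zinc finger gene tio was called lower (−1.61 ± 0.33), as were the GATA factor gene grn (−1.73 ± 0.32) and disco-r (−1.62 ± 0.35). disco-r stood at 0.66 and 0.75 FPKM in reprogrammed samples and 3.19 and 5.57 FPKM in controls, so it passed the filter only through the controls. tsh, the paralog of tio, stood at 4.66 and 5.36 FPKM in reprogrammed samples and 9.93 and 22.30 FPKM in controls, and disco stood at 1.11 and 1.12 FPKM in reprogrammed samples and 3.75 and 8.64 FPKM in controls. Neither was called (limma adjusted p = 0.0874 and 0.0573). hb, an embryonic gap gene, was under 1 FPKM throughout. The 4 calls were all lost with the length trend removed (limma adjusted p from 0.0779 for grn to 0.216 for disco-r), and that of hth also on a common median (0.0628). The other 3 were lost after quantile normalization (0.0552 to 0.0674). Without reprogrammed replicate 1 or 2 none of the 4 passed (0.154 to 0.439), and 7 of the 7 passed without control replicate 1 and 6 without control replicate 2. exd passed on a common sum (0.0343), without control replicate 1 (0.026) and without control replicate 2 (0.0226). tsh passed without control replicate 1 (0.0197), and disco without control replicate 1 (0.0197) or 2 (0.0404).

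Genes reported as Hox targets in various fly tissues fell in part. Of 25 tested, 11 were called lower, 0 higher, and 14 did not pass (median −1.25), where 8.13% of all tested genes were called lower. fkh, a forkhead factor that Scr switches on in the embryonic salivary gland, stood at 1.45 and 2.10 FPKM in reprogrammed samples and 13.78 and 11.52 FPKM in controls (−2.30 ± 0.34, limma adjusted p = 0.0324). The zinc finger gene opa changed by −2.08 ± 0.36, the LIM homeobox gene ap by −2.07 ± 0.47 and dac by −2.03 ± 0.37. The ap and dac calls were lost with equal medians (limma adjusted p = 0.0829 for ap and 0.0612 for dac), and with equal quantiles those of ap (0.129), dac (0.0569) and opa (0.0681) were lost. With the length trend removed ap (0.143), dac (0.105) and opa (0.0588) did not pass either. The cell death genes through which Hox factors remove neural stem cells and neurons, chosen here after their values were seen, did not move as a block. Among these, skl was called lower, at 10.23 and 13.97 FPKM in reprogrammed samples and 43.65 and 35.65 FPKM in controls (−1.64 ± 0.31, limma adjusted p = 0.0384), a call lost with equal quantiles (0.0566), with equal medians (0.0655) and without reprogrammed replicate 1 (0.365) or 2 (0.112). grim stood at 11.11 and 14.05 FPKM in reprogrammed samples and 40.17 and 23.38 FPKM in controls, without a call (limma adjusted p = 0.0764), and passed on a common sum (0.0464), without control replicate 1 (0.0475) and without control replicate 2 (0.0221). hid stood at 8.22 and 6.72 FPKM in reprogrammed samples and 21.38 and 10.23 FPKM in controls, and passed only without control replicate 2 (0.196 with all libraries and 0.025 without it). rpr was higher in both reprogrammed samples, at 127.46 and 82.54 FPKM against 62.17 and 49.56 FPKM in controls, without a call (0.87 ± 0.32, limma adjusted p = 0.123).

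Polycomb group genes, which keep Hox genes silent outside their domains, and trithorax group genes, which keep them active, each had members called lower and none called higher. Of 29 Polycomb group genes 9 were called lower and 0 higher (median −1.13), and of 36 trithorax group genes 8 were called lower and 0 higher (median −1.16). These are 31.0% and 22.2%, where 8.13% of all tested genes and 23.9% of the eighth with the longest transcripts were called lower. The number, share and median for the trithorax group include btl, a gene that also stands in the trachea list and was not called (0.17 ± 0.29). ph-p, a subunit of the repressive complex PRC1, stood at 3.14 and 3.15 FPKM in reprogrammed samples and 13.21 and 18.26 FPKM in controls (−2.00 ± 0.34, limma adjusted p = 0.0340), and jing changed by −2.06 ± 0.32. The chromatin remodeler genes Iswi and brm changed by −2.01 ± 0.30 and −1.60 ± 0.34, and brm lost its call with equal quantiles (limma adjusted p = 0.0511). With the length trend removed the numbers called lower were 0 Polycomb group and 1 trithorax group gene, Iswi (limma adjusted p = 0.0352).

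Transcription factors of the brain and optic lobe, regions that mostly lack Hox expression, also had members that fell. Of 24 brain and optic lobe region factors 13 were called lower and 0 higher (median −1.56), led by tll at 1.39 and 0.91 FPKM in reprogrammed samples and 12.75 and 13.15 FPKM in controls (−2.71 ± 0.33, limma adjusted p = 0.0297). The share called lower was 8.13% over all tested genes, and the share called higher 4.11%. ems, a head gap gene, changed by −1.96 ± 0.32 and Lim1 by −2.00 ± 0.30. The lists are not independent, since ems and dac stand both here and among the reported targets, and ap among the targets and the other homeodomain genes. Of 39 other homeodomain genes tested 14 were called lower and 1, repo, higher (median −1.19). Among these tup, Lim3 and pros changed by −2.11 ± 0.33, −2.06 ± 0.33 and −2.05 ± 0.35. With the length trend removed Lim1 (limma adjusted p = 0.0507), tup (0.055), Lim3 (0.054) and pros (0.0917) did not pass. The tup and Lim3 calls were also lost with equal quantiles (0.0565 each), and that of pros with equal medians (0.0687). Against the median log2 level of the brain region factors Antp stood at 1.95 and 1.96 in reprogrammed samples and at 1.54 and 1.22 in controls. Scr stood at 0.52 and 0.81 in reprogrammed samples and at 2.09 and 1.34 in controls on that measure. Over all tested genes 85.2% were higher without overlap and 1.76% lower against that median. Whether Hox genes as a group changed less than these lists was not tested.

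The counts for these lists depended on which library was left out. Without reprogrammed replicate 1 the numbers called lower were 0 targets, 0 Polycomb group, 0 trithorax group, 1 brain region and 0 other homeodomain genes. Without reprogrammed replicate 2 they were 1, 0, 1, 5 and 2. Without control replicate 1 they were 18, 25, 27, 19 and 26, and without control replicate 2 they were 15, 16, 15, 16 and 19. Among the genes named from these lists, tll kept its call in all 4 of these fits, dac, Iswi and pros lost theirs without reprogrammed replicate 1, and fkh, opa, ap, ph-p, jing, brm, ems, Lim1, tup and Lim3 lost theirs without either reprogrammed library. With 1 library of a group left out, the lone library is assumed to vary like the other pair.

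Imaginal discs express several Hox genes and lie against the nervous system, so genes used as disc markers were also counted. The 23 leg and wing disc genes found, several of them also expressed in the nervous system, summed to 103 and 133 FPKM in reprogrammed samples and to 357 and 359 FPKM in controls, and 6 of 22 tested were called lower, 0 higher. The genes called lower, dac, ap, Lim1, bi, Dll and fj, stand in other lists above except fj. The wing disc markers vg and nub, which were not called, stood at 0.34 and 0.54 and at 0.80 and 1.25 FPKM in reprogrammed samples, and at 1.58 and 3.54 and at 3.04 and 4.09 FPKM in controls. Eye-antennal disc genes summed to 80.0 and 88.7 FPKM in reprogrammed samples and to 255 and 206 FPKM in controls. Most of these sums was the pan-neuronal gene elav and the cofactor gene hth, the 2 called lower of 11 tested. In controls elav stood at 124.74 and 84.47 FPKM and hth at 83.45 and 73.19 FPKM. In reprogrammed samples elav stood at 24.88 and 33.33 FPKM and hth at 25.65 and 25.37 FPKM. The part of disc tissue in the Hox values was not tested. In other lists 0 of 11 body wall muscle, 1 of 9 fat body, 2 of 12 hemocyte, 0 of 3 salivary gland, 0 of 7 ring gland, 3 of 8 trachea and 0 of 5 gut genes were called lower and none higher. Of all tested genes 8.13% were called lower and 4.11% higher. The lists without a call still had negative medians, −1.36 for muscle, −1.88 for salivary gland, −0.73 for ring gland and −0.31 for gut. That of all tested genes was −0.25. Of 10 general control genes 1, Gapdh2, was called higher and 0 lower.

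Genes most like each Hox gene in pattern were found by the root mean square distance between log2(FPKM + 1) values centred on each gene's mean over the 4 libraries. Scr had 1 gene within a distance of 0.1, SP555 at 0.072, followed by GstZ2 at 0.122. SP555 stood at 1.06 and 1.83 FPKM in reprogrammed samples and 15.10 and 12.32 FPKM in controls. The other tested Hox genes had between 66 (lab) and 252 (Ubx) genes within that distance. The closest were Dr and cos for Antp, CG44153 and TkR86C for abd-A, dlg1 and CG42700 for Abd-B, stmA and RpL26 for Ubx, mtd and CG12708 for Dfd, and CG44532 and lqf for lab. CG44153, TkR86C and CG42700 passed the filter only through the controls and stood below 1 FPKM in both reprogrammed samples. The scale compresses such low values, so their likeness is not one of fold change. CG44153 stood at 0.23 and 0.30 FPKM in reprogrammed samples and at 1.37 and 1.54 FPKM in controls. Between Hox genes the closest patterns were those of Antp and abd-A, at 0.075, and of abd-A and Abd-B, at 0.102.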

How the data were processed

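The authors deposited for each sample a table of FPKM values per gene, which the file headers name as such. Alignment tools named in the submitters' processing notes are Bowtie2 and HISAT, with no version. The quantifier and genome build: not given in the sources used here. No coordinates or sequences are therefore printed. Genes missing from a table were set to 0. Gene numbers were turned into names with a RefSeq gene table of Release 6 for 13960 of 13997 genes, transcript accessions named 2 more, and 35 stayed unnamed. For 9839 of 9851 tested genes, the longest transcript in an Ensembl annotation (BDGP6) gave the length. Low values of single-transcript genes were whole reads in 93.2% to 96.3% of cases within 0.15 reads, where 30.0% would be by chance. Because transcript lengths behind most FPKM values are unknown, no count test was run.

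Sample titles gave the groups. A gene was tested where at least 2 of the 4 libraries reached 1 FPKM, on log2(FPKM + 1), with limma (eBayes with a mean-variance trend) and group as the only term. This left 2 residual and 3.72 prior degrees of freedom. The method was tested on simulated data. The Hox genes and the gene lists were chosen with earlier results of these data known, and no list was tested as a set. Named were the Hox genes, their cofactors, genes inside the complexes, up to 4 called members of each further list by size of change, and for each Hox gene the 2 genes nearest in pattern. The complexes were read from the annotation, since the neighbour list written by hand held wat and lncRNA:Hsromega, which lie elsewhere. Of that hand-written list 1 of 4 tested genes, Ama, was called higher and 0 lower. For lists of other tissues, counts and sums replace names. Of 416 names written in 21 lists, 16 matched no listed gene. Alternatives covered scaling, filter, pseudocount, the length trend, the replicate block and leaving out each library.

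Versions were limma 3.58.1 in R 4.3.3, and under Python 3.11.15 the packages scipy 1.17.1, pandas 2.3.3, numpy 2.4.6 and matplotlib 3.10.9.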

Additional observations from a re-analysis of the deposited data

How the results depend on the processing

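Scr kept its direction under all 12 alternatives and lost its call with no filter on low values (−2.71), where no gene passed. Antp passed on a common sum (−1.34), and with 1 library left out its change ranged from −1.20 to −0.97, passing without either control. For abd-A that range was −1.03 to −0.91. Signs turned for changes that were never called. On a common median these became 0.04 for Dfd, 0.07 for Ubx, 0.08 for lncRNA:CR45593, 0.15 for lncRNA:CR44932 and 0.17 for lncRNA:iab8. After quantile normalization they became 0.27, 0.32, 0.27, 0.38 and 0.34. With the length trend removed Dfd read 0.13, Ubx 0.51, Abd-B 0.19 and lncRNA:iab8 0.34. With 1 library left out the ranges were −0.05 to 0.37 for lab, −0.59 to 0.22 for Ubx, −0.49 to 0.06 for lncRNA:CR45593, −1.06 to 0.02 for 7SLRNA:CR42652 and 7SLRNA:CR32864, −0.50 to 0.24 for lncRNA:CR44932 and −0.30 to 0.24 for lncRNA:iab8. Scaling also moved the median of all genes, which was −0.25 as deposited. It became 0.06 with equal medians, −0.49 with equal sums and −0.04 with equal quantiles. Of all calls 33.6% were higher as deposited, 57.2% with equal medians, 20.2% with equal sums and 59.7% with equal quantiles, and 446 were higher and 297 lower with the length trend removed.

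Numbers called lower are given for Hox genes, cofactors, Polycomb group, trithorax group, reported targets, brain region factors and other homeodomain genes, in that order. As reported they were 1, 4, 9, 8, 11, 13 and 14. On a common median they were 1, 3, 5, 5, 4, 9 and 5. On a common sum they were 2, 5, 13, 12, 13, 16 and 18. After quantile normalization they were 1, 1, 2, 1, 3, 4 and 3. With no filter all were 0. With a filter of 5 FPKM they were 1, 3, 10, 11, 10, 10 and 9, with a pseudocount of 0.1 they were 1, 4, 9, 7, 11, 10 and 9, and with the length trend removed 1, 0, 0, 1, 4, 4 and 2. With 1 library left out they ranged from 1 to 3, 0 to 7, 0 to 25, 0 to 27, 0 to 18, 1 to 19 and 0 to 26. Numbers called higher were 0 for targets as reported, 1 with a filter of 5 FPKM and with the length trend removed, and 0 to 2 with 1 library left out. For brain region factors they were 0, and 0 to 1 with 1 library left out. For other homeodomain genes, 1 as reported, they were 0 on a common sum, with no filter and with a pseudocount of 0.1, and 0 to 1 with 1 library left out.

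Libraries with the same replicate number did not deviate together over genes as a whole (correlation of deviations −0.03). That value cannot show whether they shared a preparation, since a batch may move only some genes. The titles give a number and no pairing. With the replicate block the numbers called lower were 2, 7, 17, 23, 15, 19 and 26, Antp passed (−1.09), and the numbers higher were 1 for targets, 1 for brain region factors and 1 for other homeodomain genes. Causes of these differences were not tested. Depth limits pb, which rests on about 0.8 to 25.5 reads a library.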
